A study of Caenorhabditis elegans with 6 samples.

Results

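The genes described here are 10 putative targets of daf-16/FOXO: cup-16, prdh-1, cht-5, ttc-36, spig-9, E01G4.3, B0513.4, F19C6.4, F36F2.1 and F36F2.2. They are 10 of the 84 genes that the study tabulated as putative daf-16 targets deregulated in 128Q cells, and 10 of the 29 genes of that table whose probe carries a gene name here, among 7477 named genes in all. The table gives 7 of the 10 as up-regulated and cht-5, ttc-36 and spig-9 as down-regulated. The values that put a gene into the table are those of 128Q over 19Q cells on these same arrays, so the genes were chosen by these values, which are given as a description without a test. The same holds for any sum that contains them. The 10 were also picked from the 29 with results of 128Q over 19Q known. The size of the ratio of 19Q over GFP-only cells was not a criterion and was tested, although it shares the 19Q cells with the other ratio. Its test also shares one estimate of the spread with the other ratio, so the choice may have favoured genes with close arrays in both.

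RNA came from Caenorhabditis elegans touch receptor cells, cultured overnight from embryos and sorted by their GFP fluorescence. There were 3 kinds of cells: 128Q cells carried an N-terminal fragment of huntingtin with an expanded polyglutamine stretch fused to GFP, 19Q cells carried the same fragment with a normal stretch, and GFP-only cells carried GFP without huntingtin. The names give the number of glutamines. All 3 transgenes were driven by the mec-3 promoter, which is active in touch receptor neurons and a few other neurons. On 3 sets of dual-colour arrays 128Q cells were set against 19Q cells, and on 3 others 19Q cells were set against GFP-only cells. The values are log ratios with no stated log base, called deposited units below, and are positive where the first-named cells had more of the transcript. Sorted cells are a bulk sample, in which fewer cells of a type and less RNA per cell cannot be told apart. The sets are called biological replicates of independent experiments, but separate cultures are not described, so a p value measures the spread between these sets, part of which may be technical.

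DAF-16 is the FOXO transcription factor of the nematode. It acts downstream of the insulin/IGF-1 receptor DAF-2: when signalling through the receptor is low, DAF-16 enters the nucleus and changes the expression of genes for stress resistance, metabolism and longevity. A putative target is a gene linked to DAF-16 either because its expression changes with daf-16 activity or because DAF-16 was found at it by chromatin immunoprecipitation. The study's table took B0513.4, F19C6.4 and prdh-1 from immunoprecipitation and the other 7 genes from expression arrays. Of the 10 genes, prdh-1 encodes a proline dehydrogenase, the mitochondrial enzyme that starts the breakdown of proline, and cht-5 encodes a member of the chitinase family. The name cup-16 stands for coelomocyte uptake defective, after the scavenger cells of the body cavity, and ttc-36 encodes a protein with tetratricopeptide repeats, a fold for binding other proteins. For spig-9 and the 5 genes known by sequence name alone, no role is given here.

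The 6 sets hold 22562 probes and were unequal in quality. Across probes, the sets of 128Q over 19Q correlated with each other with r = 0.54 to 0.68. In 19Q over GFP the first pair of sets gave r = 0.74, but the r of replicate 3 was only 0.11 with replicate 1 and 0.012 with replicate 2, so this set stands apart. A further reading left out 243 unnamed probes with very low values. They were below -4 in replicate 1 of 128Q over 19Q and in replicates 1 and 2 of 19Q over GFP. That cut used the first pair of 19Q over GFP, so it bears on the r of this pair directly. Without these probes r was 0.68 to 0.76 for 128Q over 19Q and 0.53 for the first pair of 19Q over GFP. For replicate 3 it was 0.21 with replicate 1 and 0.045 with replicate 2, again the lowest. Means of the 10 genes in 19Q over GFP are therefore given with and without replicate 3. The median over probes was 0.009 to 0.079 in the sets of 128Q over 19Q and 0.081 to 0.143 in those of 19Q over GFP, so that 0 lies slightly below the middle of the latter. None of the 12 touch receptor markers looked up, and 0 of 55 markers of 8 cell types in all, has a named probe, so the cell type on the labels was not checked here. The same held for 39 genes of insulin signalling and DAF-16 regulation and for 47 well-known DAF-16 targets. In the study's own list for 128Q over 19Q cells, the touch receptor markers mec-7, mec-12, mec-17 and mec-18 have log ratios below 0. Those genes could not be followed by array here.

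In 128Q cells relative to 19Q cells, the 7 genes listed as up-regulated lay above 0 on all 3 arrays, as did 30.9% of the 22033 features tested. The 3 genes listed as down-regulated lay below 0 on all 3 arrays, as did 25.7% of features. Nothing is read from these counts, since the contrast chose the genes. The means of the 7 genes ran from 1.39 for prdh-1 to 2.94 for E01G4.3, with a median of 2.45, against a median of 0.045 over all features. Those of the 3 others ran from -1.95 for spig-9 to -1.39 for cht-5. In 19Q cells relative to GFP-only cells the 10 genes were spread from -0.77 for cht-5 to 0.77 for cup-16, with a median of 0.22, beside a median of 0.093 over 21897 features. All of these means lay between the 5th and the 95th percentile of the features, -1.06 and 0.88. By limma 0 of the 10 genes passed an adjusted p under 0.01, and the same was true of all features (0%). The lowest adjusted p over all features was 0.098 from limma. The study did list genes as deregulated in this comparison in its own analysis, so the absence of calls belongs to the fit used here. At an unadjusted p under 0.05 there were 3 of the 10 genes, cup-16, F19C6.4 and cht-5, beside 22.0% of features.

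**Figure D1:**
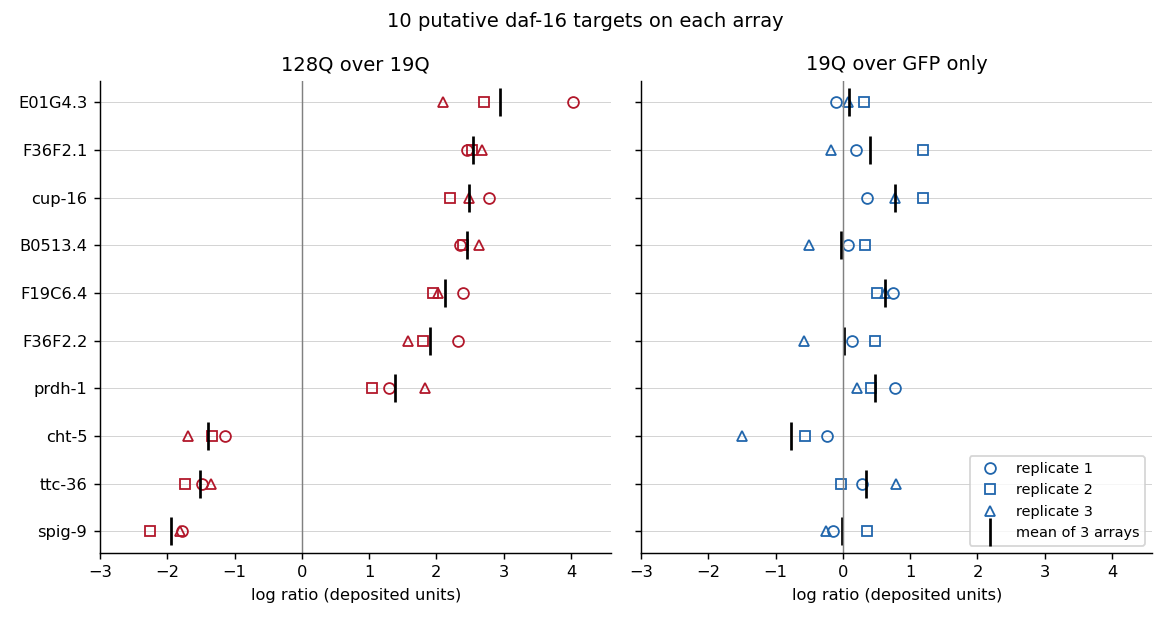
Log ratios of the 10 genes in deposited units on the 3 arrays of 128Q over 19Q (left) and the 3 of 19Q over GFP only (right). Open symbols are arrays and black ticks are means; all points on the left lie on the side of 0 that the study's table gives, while on the right only cup-16, F19C6.4, prdh-1 and cht-5 lie on a single side.

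Of the genes listed as up-regulated, cup-16, F19C6.4 and prdh-1 were above 0 on all 3 arrays of 19Q over GFP. Of those listed as down-regulated, cht-5 was below 0 on all 3. Among all features 27.3% lay above 0 on all 3 arrays and 13.3% below. For cup-16 the values were 0.35, 1.19 and 0.78 in replicates 1 to 3. Their mean was 0.77 ± 0.42 (SD, n = 3), with a 95% interval of 0.24 to 1.31 and an adjusted p of 0.155 from limma. Replicate 2 was the highest and replicate 1 the lowest, and the mean without replicate 3 was again 0.77. In 128Q over 19Q cells cup-16 had 2.78, 2.20 and 2.48, so its arrays differed by less than those of 19Q over GFP. The sum of its means in the comparisons, which stands indirectly for 128Q over GFP-only cells, was 3.26 ± 0.32 (SE from limma). It was the highest of the 10 genes with all arrays, but without replicate 3 of 128Q over 19Q it was 3.27, against 3.46 for E01G4.3. The other cup gene with a named probe, cup-14, averaged 0.25 ± 0.039 in 128Q over 19Q cells (SD, n = 3; adjusted p = 0.690, limma). In 19Q over GFP-only cells cup-14 had 0.001, 1.04 and 1.55, also above 0 on every array. Its mean there was 0.86 ± 0.79 (SD, n = 3; adjusted p = 0.1825, limma), above that of cup-16.

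F19C6.4, a target by immunoprecipitation, had the narrowest spread of the 10 genes in 19Q over GFP. Its values were 0.74, 0.51 and 0.63 in 19Q over GFP-only cells, with a mean of 0.63 ± 0.11 (SD, n = 3), a 95% interval of 0.20 to 1.06 and an adjusted p of 0.155 from limma. The median SD over all features in this comparison was 0.49. All 3 arrays, including the one that stands apart, gave nearly the same value, and without replicate 3 the mean was again 0.63. In 128Q over 19Q cells the values were 2.39, 1.95 and 2.03. The sum for 128Q over GFP-only cells was 2.75 ± 0.26 (SE from limma). In the gene order of the reference annotation, F19C6.4 lies between F19C6.3 and F42G10.1. F42G10.1 is itself in the study's table and has no named probe here. F19C6.3 had -0.16, -0.34 and -0.41 in 128Q over 19Q cells (adjusted p = 0.611 from limma), below 0 on every array.

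The genes prdh-1 and B0513.4, both targets by immunoprecipitation, are next to each other in the gene order. In 128Q over 19Q cells the proline dehydrogenase gene prdh-1 had 1.30, 1.04 and 1.83, and B0513.4 had 2.35, 2.39 and 2.63. Every array thus gave B0513.4 the larger ratio, and both genes were highest in replicate 3. Relative to GFP-only cells, 19Q cells gave prdh-1 values of 0.78, 0.42 and 0.22, with a mean of 0.47 ± 0.28 (SD, n = 3), a 95% interval of -0.057 to 1.00 and an adjusted p of 0.262 from limma. B0513.4 had 0.078, 0.33 and -0.50, with a mean of -0.033 ± 0.43 (SD, n = 3), a 95% interval of -0.54 to 0.47 and an adjusted p of 0.940 from limma. B0513.4 lay on both sides of 0, and without replicate 3 its mean was 0.20 and that of prdh-1 0.60. The sums for 128Q over GFP-only cells were 1.86 ± 0.32 for prdh-1 and 2.42 ± 0.30 for B0513.4 (SE from limma). The 95% intervals of both genes in 19Q over GFP included 0 and overlapped, and a difference between the genes was not tested.

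F36F2.1 and F36F2.2 are a further pair of adjacent genes, both taken from expression arrays. F36F2.1 had 2.46, 2.52 and 2.67 in 128Q over 19Q cells, with an SD of 0.11, the smallest of the 10 genes in this comparison. F36F2.2 had 2.32, 1.80 and 1.57, so the order of the arrays was the reverse of that of F36F2.1. F36F2.1 in 19Q over GFP-only cells had 0.20, 1.19 and -0.17, with a mean of 0.41 ± 0.70 (SD, n = 3), a 95% interval of -0.24 to 1.05 and an adjusted p of 0.405 from limma. F36F2.2 had 0.14, 0.48 and -0.58 in 19Q over GFP-only cells, with a mean of 0.016 ± 0.54 (SD, n = 3), a 95% interval of -0.60 to 0.63 and an adjusted p of 0.977 from limma. Both genes were highest in replicate 2 and below 0 in replicate 3, the set that stands apart. Without it the means were 0.69 for F36F2.1 and 0.31 for F36F2.2. The mean of F36F2.1 also rested on replicate 2, without which it was 0.013. The sums for 128Q over GFP-only cells were 2.96 ± 0.39 and 1.91 ± 0.37 for these genes (SE from limma). F36F2.8, the gene on the far side of F36F2.2, had 0.43, -0.23 and -0.32 in 128Q over 19Q cells (adjusted p = 0.945 from limma) and lay on both sides of 0. In 19Q over GFP-only cells F36F2.8 had 0.60, 1.04 and 0.46, above 0 on every array. Its mean there was 0.70 (adjusted p = 0.173 from limma), above those of F36F2.1 and F36F2.2 over all 3 arrays.

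E01G4.3 had the highest mean in 128Q over 19Q cells and also the widest spread, with 4.02, 2.70 and 2.10 and an SD of 0.98. Replicate 1 was the highest array, and without it the mean was 2.40, below the 2.60 of F36F2.1 and the 2.51 of B0513.4. In 19Q over GFP-only cells its values were -0.10, 0.32 and 0.074, with a mean of 0.095 ± 0.21 (SD, n = 3), a 95% interval of -0.73 to 0.92 and an adjusted p of 0.891 from limma. This mean was at the 50th percentile of all features, and without replicate 3 it was 0.11. The sum for 128Q over GFP-only cells was 3.04 ± 0.49 (SE from limma). E01G4.5, the next gene in the order, is not in the study's table. Its values in 128Q over 19Q cells were 1.83, 1.37 and 1.15, which averaged 1.45 ± 0.35 (SD, n = 3; adjusted p = 0.00875, limma). It rose at the threshold of 0.01, as did 1.63% of features, and it was the gene that passed among the 7 neighbours outside the table with a named probe (2.80% of features passed in either direction). Both E01G4.3 and E01G4.5 were highest in replicate 1 and lowest in replicate 3. Replicate 1 also had the widest spread over all probes, with an SD of 1 against 0.78 and 0.81 in replicates 2 and 3. E01G4.5 passed without replicate 3 of 19Q over GFP and did not pass without any other array, where its adjusted p was 0.0173 to 0.071. Nor did it pass with each comparison fitted on its own (0.0155). Without any 1 array of 128Q over 19Q, 0 of all features passed, so that loss is not particular to E01G4.5.

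**Figure D2:**
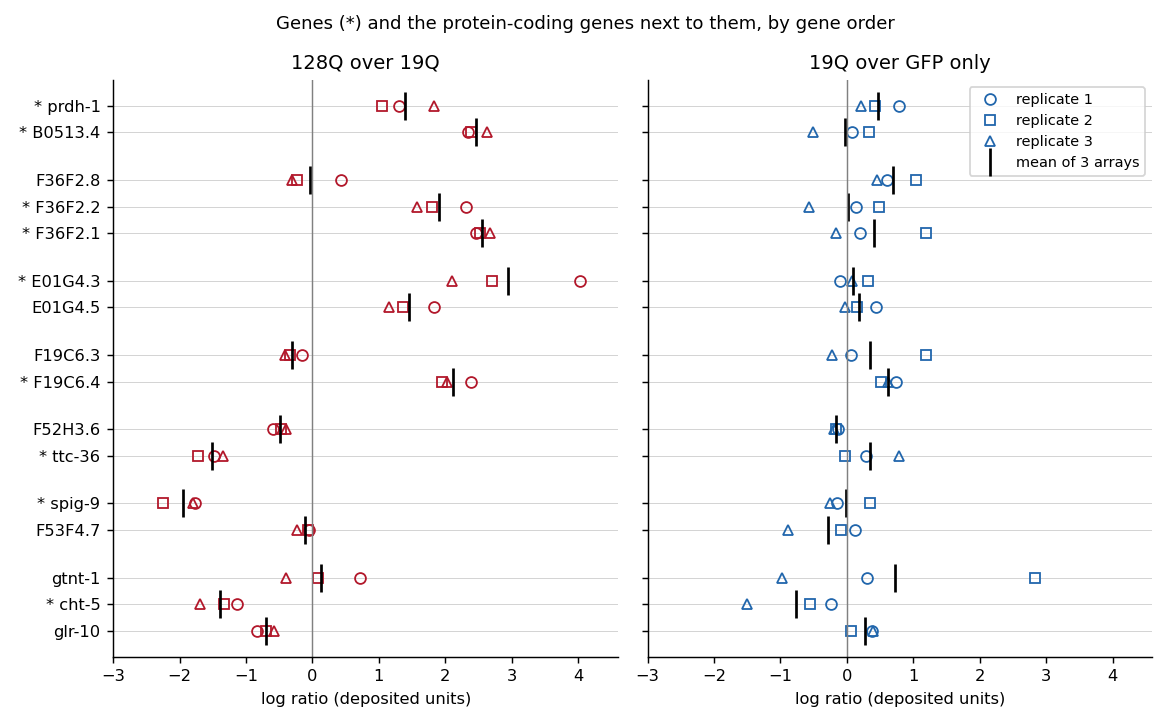
Log ratios in deposited units of the genes marked with a star and of the protein-coding genes next to them that have a named probe, in the order of the reference annotation, for 128Q over 19Q (left) and 19Q over GFP only (right). Open symbols are arrays and black ticks are means; the blocks of prdh-1, F36F2.1 and E01G4.3 hold 2 genes each that are above 0 on all 3 arrays on the left, while F36F2.8 and F19C6.3 are not.

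Of the genes listed as down-regulated, cht-5 encodes a chitinase, an enzyme class that cuts chitin. It had -1.14, -1.34 and -1.70 in 128Q over 19Q cells. Its values in 19Q over GFP-only cells were -0.23, -0.56 and -1.50, with a mean of -0.77 ± 0.66 (SD, n = 3), a 95% interval of -1.41 to -0.12 and an adjusted p of 0.190 from limma. Replicate 3 was the lowest array in both comparisons. Without replicate 3 of 19Q over GFP the mean was -0.40, nearer to 0 because the set that stands apart holds the lowest value. The sum for 128Q over GFP-only cells was -2.16 ± 0.39 (SE from limma). It was the lowest of the 10 genes with all arrays, but without replicate 3 of 19Q over GFP it was -1.79, against -1.84 for spig-9, and without replicate 3 of 128Q over 19Q it was -2.0, against -2.03 for spig-9. The other named chitinase gene, cht-6, is not in the table. It had -2.04, -2.16 and -2.19 in 128Q over 19Q cells, and averaged -2.13 ± 0.075 (SD, n = 3; adjusted p = 0.00396, limma). It fell at the threshold of 0.01, as did 1.17% of features. For cht-6 the 19Q over GFP-only values were -0.37, -1.49 and -0.80 (adjusted p = 0.145 from limma), again below 0 on every array. The call of cht-6 was lost without any 1 array of 128Q over 19Q, with an adjusted p of 0.0385 to 0.0402 from limma. This is not particular to cht-6, since 0 of all features passed there. On the chromosome cht-5 lies between gtnt-1, with 0.72, 0.076 and -0.40 in 128Q over 19Q cells (adjusted p = 0.940 from limma), and glr-10, a member of the glutamate receptor family, with -0.83, -0.70 and -0.59 (adjusted p = 0.050 from limma). Neither passed the threshold, and glr-10 was below 0 on every array.

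The gene with the lowest mean in 128Q over 19Q cells, spig-9, had -1.77, -2.26 and -1.81 there. The values in 19Q over GFP-only cells were -0.14, 0.35 and -0.25, with a mean of -0.014 ± 0.32 (SD, n = 3), a 95% interval of -0.51 to 0.48 and an adjusted p of 0.974 from limma. The arrays lay on both sides of 0, and the mean without replicate 3 was 0.10. The sum for 128Q over GFP-only cells was -1.96 ± 0.29 (SE from limma). Of 13 other spig genes with a named probe, 1 fell in 128Q over 19Q cells and 0 rose, and their median was 0.048, close to the 0.045 of all features, of which 1.17% fell and 1.63% rose. The gene that fell was spig-4, with -1.37, -2.06 and -1.64 (-1.69 ± 0.35, SD, n = 3; adjusted p = 0.00532, limma). Both spig-9 and spig-4 were lowest in replicate 2. The call of spig-4 was kept without replicate 3 of 19Q over GFP and lost without any other array, where its adjusted p was 0.0117 to 0.0468. It was also lost with each comparison fitted on its own (0.0122). Without any 1 array of 128Q over 19Q, 0 of all features passed, so that loss is not particular to spig-4. By mean, 8 of the 13 genes were above 0 and 5 below. Next to spig-9 in the gene order, F53F4.7 had -0.058, -0.072 and -0.23 in 128Q over 19Q cells (adjusted p = 0.830 from limma).

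The gene ttc-36, for a tetratricopeptide repeat protein, lay below 0 in 128Q over 19Q cells and on both sides of 0 in 19Q over GFP-only cells. In 128Q over 19Q cells it had -1.48, -1.73 and -1.35. In 19Q over GFP-only cells the values were 0.28, -0.029 and 0.79, with a mean of 0.35 ± 0.41 (SD, n = 3), a 95% interval of -0.16 to 0.86 and an adjusted p of 0.367 from limma. Replicate 3 was the highest array there, and without it the mean was 0.13. The sum for 128Q over GFP-only cells was -1.17 ± 0.30 (SE from limma), the smallest in size of the 10 genes. Of the other 4 ttc genes with a named probe, which share only the repeat in their names, none passed the test in 128Q over 19Q cells (2.80% of features passed), and their means ran from -0.23 to 1.03. In 19Q over GFP-only cells 0 of them passed (0% of features), and the means ran from -0.94 to 0.63, with 3 above 0 and 1 below. F52H3.6, next to ttc-36, had -0.59, -0.48 and -0.40 in 128Q over 19Q cells (adjusted p = 0.118 from limma).

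**Figure D3:**
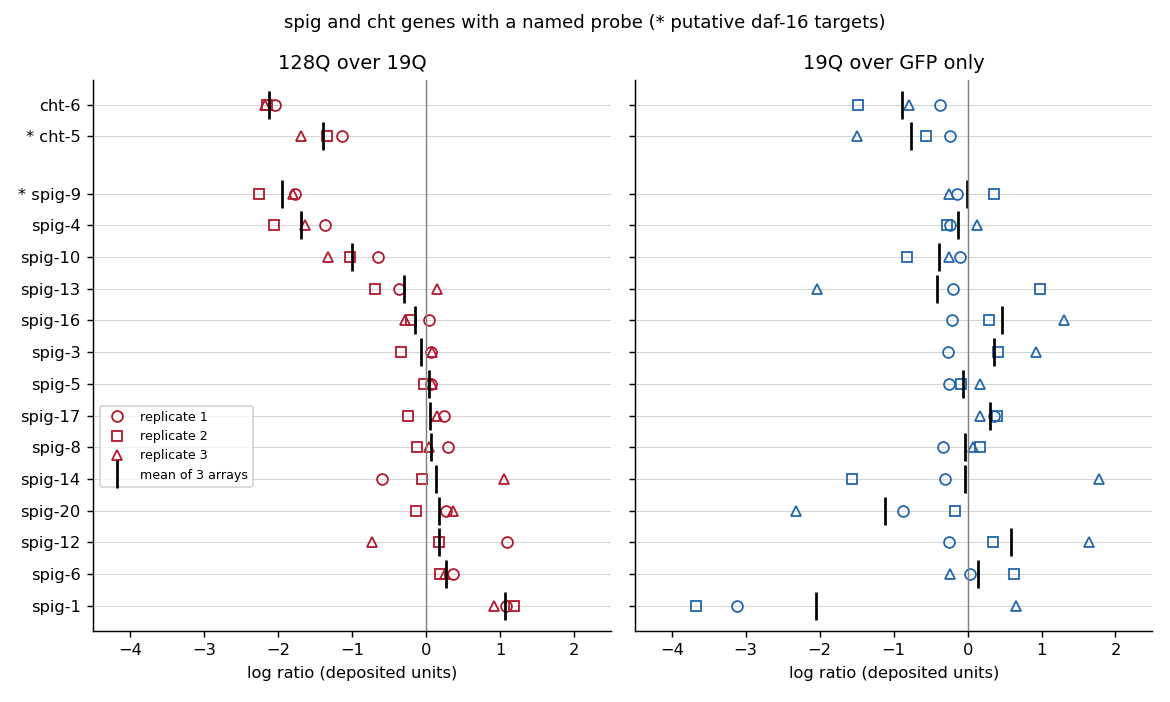
Log ratios in deposited units of the cht and spig genes with a named probe in 128Q over 19Q (left) and 19Q over GFP only (right); stars mark cht-5 and spig-9. Open symbols are arrays and black ticks are means; on the left cht-5, cht-6, spig-9, spig-4 and spig-10 are below 0 on all 3 arrays and most other spig genes lie around 0.

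Nothing states that a replicate of one comparison belongs with the same number of the other, so the sums were also read over all 9 combinations of a 128Q over 19Q array with a 19Q over GFP array. The 7 genes listed as up-regulated were above 0 in all 9, from 1.00 for the lowest combination of F36F2.2 to 4.34 for the highest of E01G4.3. For all features the share was 21.3%. The 3 genes listed as down-regulated were below 0 in all 9, beside 12.6% of features, and the combination nearest to 0 was -0.56 for ttc-36. These counts contain the contrast that chose the genes and are no evidence for it. In E01G4.3, B0513.4, F36F2.2 and spig-9 the 19Q over GFP mean was within 0.1 of 0. Without replicate 3 the means were 0.11 for E01G4.3, 0.20 for B0513.4, 0.31 for F36F2.2 and 0.10 for spig-9, all past that limit. In cup-16, F19C6.4 and cht-5 the 95% interval of the mean over all 3 arrays did not include 0. This is the same as an unadjusted p under 0.05 by limma, which 22.0% of features had. None of the 10 genes passed an adjusted p under 0.01.

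**Figure D4:**
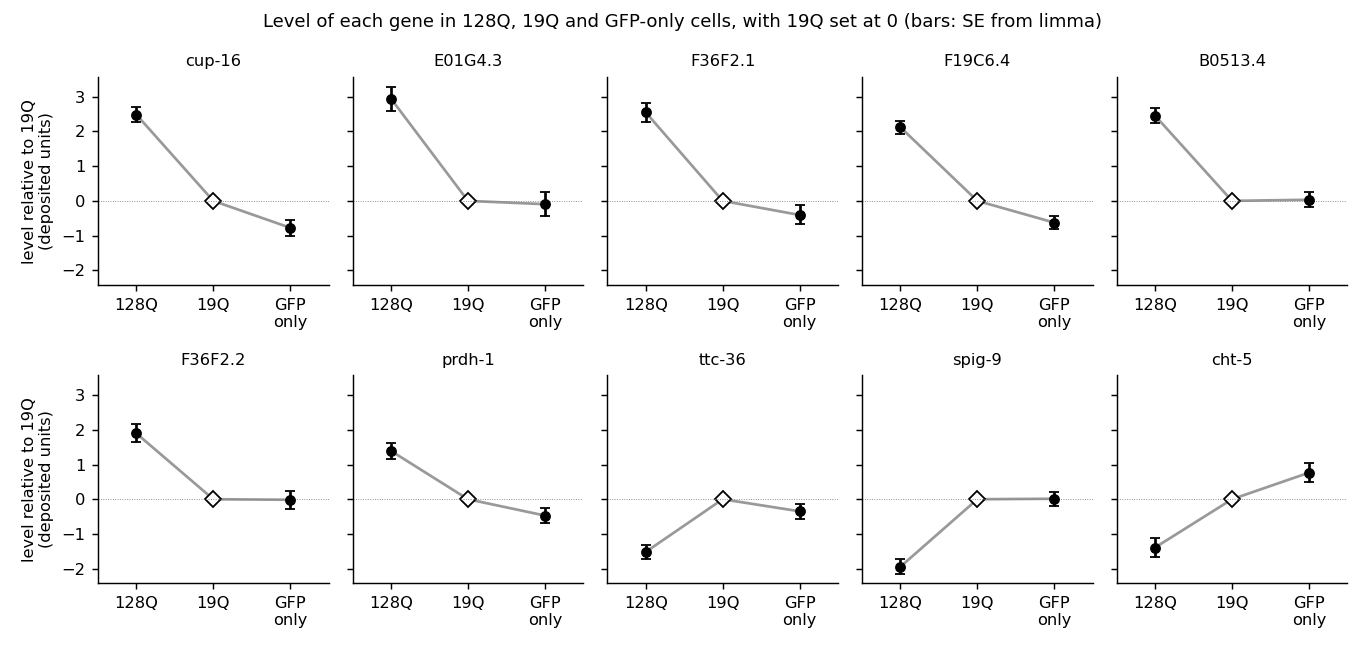
Mean level of each of the 10 genes in 128Q, 19Q and GFP-only cells in deposited units, with 19Q cells set at 0. The GFP-only point is the 19Q over GFP mean with its sign turned, and bars are SEs from limma. The steps on either side of 19Q may differ in scale. E01G4.3, B0513.4, F36F2.2 and spig-9 have 19Q and GFP-only points within 0.1 of each other with all 3 arrays, though not without replicate 3, and cup-16 has a step of 0.77 with and without it.

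The other 19 named genes of the table spread more between arrays than the 10. In 19Q over GFP-only cells the median SD over 3 arrays was 0.42 for the 10 genes and 1.02 for the 19 others, beside 0.49 for all features. This difference was not tested, since picking genes by a fit with one estimate of the spread favours genes with close arrays in both comparisons. The highest mean of the 19 was that of nspg-10, a nematode-specific peptide gene, with 2.84, 1.84 and -0.046 in replicates 1 to 3. F35E12.9 followed with 2.30, 1.49 and 0.79 and averaged 1.53 ± 0.76 (SD, n = 3; adjusted p = 0.127, limma), and it was above 0 on every array. The lowest was C08B6.10, with -1.88, -4.39 and 0.27. For nspg-10 replicate 3 lay apart from the other arrays, while the 3 arrays of C08B6.10 were spread widely. Without replicate 3 the means were 2.34 for nspg-10, 1.90 for F35E12.9 and -3.13 for C08B6.10, and lro-1, with 2.17, came between nspg-10 and F35E12.9. By limma 0 of the 19 genes passed an adjusted p under 0.01 in this comparison (0% of features), and 5 had an unadjusted p under 0.05, beside 22.0% of features. Of the 19, 2 were above 0 and 2 were below 0 on all 3 arrays, beside 27.3% and 13.3% of features.

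**Figure D5:**
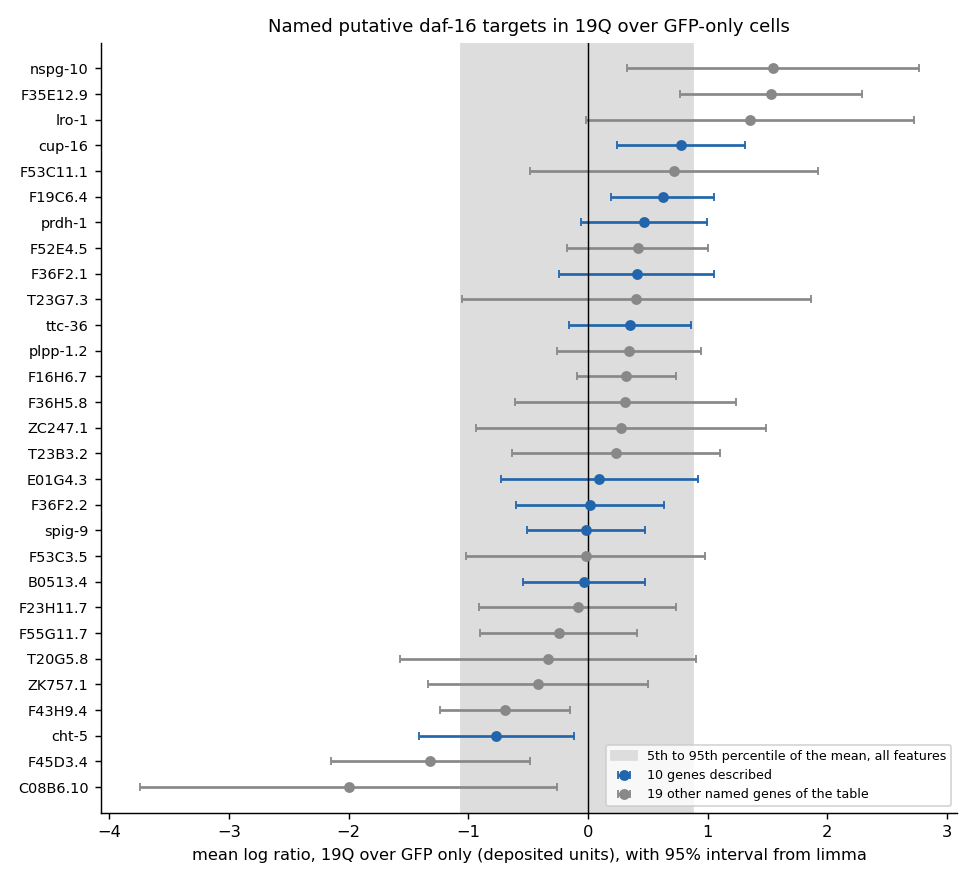
Mean log ratio of 19Q over GFP-only cells in deposited units, with its 95% interval from limma, for the 10 genes described (blue) and the 19 other named genes of the study's table (grey); the grey band runs from the 5th to the 95th percentile of all features. The 10 genes lie between -0.77 and 0.77, inside the band, and the 19 others between -2.0 and 1.54.

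Genes outside the table that lay closest to the 10 were found by the root mean square difference over the 6 arrays, among 7282 named genes with all values. F13D11.3 lay closest to the median profile of the 7 genes listed as up-regulated, with a difference of 0.083 deposited units. Its values were 2.41, 2.37 and 2.02 in 128Q over 19Q cells and 0.12, 0.45 and 0.096 in 19Q over GFP-only cells. T22H2.4, T09B4.8, C23G10.5 and Y19D10A.4 followed with differences of 0.21 to 0.29, while the 7 genes themselves differed from their own median profile by 0.33 to 0.71. For the 3 genes listed as down-regulated the closest was nadk-1, named for an NAD kinase, with a difference of 0.12. It had -1.49, -1.68 and -1.61 in 128Q over 19Q cells and -0.021, 0.095 and -0.046 in 19Q over GFP-only cells. cdc-50.B, the neuropeptide-like gene nlp-79, M195.2 and F32B5.2 followed with 0.16 to 0.23, and the 3 genes themselves differed from their median by 0.29 to 0.60. These genes were picked as the closest of those compared, so their likeness is a description over 6 arrays.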

How the data were processed

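Per the labels and the supplementary methods, RNA of sorted touch receptor cells was amplified in a single linear round, labelled with Cy5 (cells named first) and Cy3, and hybridised to dual-colour Agilent arrays read on a GenePix scanner, with dye swaps. The values the authors deposited were treated as a score: log ratios with no stated log base, centred near 0 on each of 6 sets, with an SD of 1 in 4 of them. No fold is given, as background correction, normalization and merging of dye swaps were not given in the sources used here. Signal over background is unknown. Precision is limited by having 3 arrays for each comparison.

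Gene names came from the platform's annotation: of 22562 probes, 7718 carry 1 symbol, 14844 none and 0 more than 1, and 7691 named probes matched the RefSeq gene table (WBcel235), which gave the gene order and no coordinates. Each of the 10 genes has 1 probe. Probes of a gene were averaged (22321 features) and tested where all 3 arrays of a comparison had a value, which all 10 genes had. Both comparisons were fitted together with limma 3.58.1 in R 4.3.3 (prior degrees of freedom 3.03), each mean against 0, Benjamini-Hochberg over all features, threshold 0.01; the 128Q over GFP sum is indirect. The smallest two-sided p of an exact sign permutation over 3 arrays is 0.25, so none was run. The fit was tested on simulated data. Alternatives were separate fits, robust moderation (statmod 1.5.0), centring, scaling, missing values, single probes, threshold, replicate block, named genes alone, low probes left out and each array left out. A planned count of promoter motifs was not run.

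The genes named are the 10, the table genes highest and lowest in 19Q over GFP, the 5 closest genes per direction and the next gene on either side; E01G4.5, cht-6 and spig-4 passed the test within these or the name classes, and F35E12.9 and lro-1 were singled out after their values were seen. The 10 genes and all lists were chosen with earlier results of these data known.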

Additional observations from a re-analysis of the deposited data

How the results depend on the processing

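For the 10 genes, 0 passed the test in 19Q over GFP under all settings run, including the looser threshold of 0.05. The means of all 10 kept their side of 0 in 128Q over 19Q and in the sum for 128Q over GFP under each setting run for them. Since 128Q over 19Q chose the genes, this is a description and no evidence for a change. The sizes of the means and sums did depend on the scaling. Without the unnamed probes of very low values and scaled to an SD of 1, the sums were 4.03 for cup-16, 3.73 for F36F2.1 and 3.07 for B0513.4. With the main setting they were 3.26, 2.96 and 2.42. Small means of 19Q over GFP changed sign. Centring on the median gave -0.0097 for E01G4.3 and -0.089 for F36F2.2, centring and scaling gave -0.018 and -0.023, and leaving out the 243 unnamed probes with very low values and scaling to an SD of 1 gave 0.012 for B0513.4. With each array left out, the means ran from -0.20 to 0.10 for spig-9, -0.22 to 0.31 for F36F2.2, -0.016 to 0.20 for E01G4.3 and -0.21 to 0.20 for B0513.4. Over all settings the adjusted p of the 10 genes in 19Q over GFP was 0.118 or higher.

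Over all features, 616 were called in 128Q over 19Q. The study's own list of deregulated genes for this comparison is longer. Testing the named genes alone, so fewer features, gave 359, and the looser threshold of 0.05 gave 2313. Leaving out each array gave 0 to 1472. No feature passed when an array of 128Q over 19Q was missing. When one of 19Q over GFP was missing, which lends to the estimate of the spread, 195 passed for replicate 1, 347 for replicate 2 and 1472 for replicate 3. In 19Q over GFP every setting called 0 features. Same-numbered arrays deviated from their group means with correlations of 0.426, -0.128 and 0.328, and without the low probes of -0.012, -0.00122 and 0.014. Not every pair was over 0.1 and no label gives a shared batch, so the numbers were not taken as pairs. With the replicate number as a block 204 features were called in 128Q over 19Q and 0 of the 10 genes in 19Q over GFP. The block also ended the calls of E01G4.5, cht-6 and spig-4, with adjusted p values of 0.0214, 0.0116 and 0.0174 from limma. The cause was not tested.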
